A study of Homo sapiens with 2 samples.

Results

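The 10 genes described here encode marker proteins that liver cells make for export or for their surface. 3 of them, AFP, GPC3 and DLK1, are oncofetal: made by the fetal liver, low in the adult organ and often made again by liver cancers. The other 7, ALB, TTR, RBP4, AHSG, FETUB, AMBP and GC, are mature plasma proteins of the hepatocyte. They were taken by symbol from a table of 24991 genes with a single symbol, and each of the 10 symbols had 1 row. RNA came from PLC/PRF/5, an established human hepatocellular carcinoma line, cultured under hypoxia. 1 library was from cells with an empty vector (EV) and 1 library was from cells overexpressing the zinc-finger transcription factor NFX1 (NFX1_OE), so that both groups share the hypoxia. How NFX1 was delivered, whether the cells were a pool or a clone, and the oxygen level and time are not given in the sources used here. With 1 library a group there is no replicate check and no test, and each difference below is between these 2 libraries and not between conditions.

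The hepatocyte exports most plasma proteins. Albumin and AFP belong to 1 gene family of carriers and lie side by side in the genome. In development AFP is high first and is shut down around birth while albumin goes on, so their order is a textbook readout of hepatocyte maturity. TTR and RBP4 circulate as a complex that carries thyroid hormone and retinol, AHSG and FETUB are fetuins of the cystatin superfamily, GC carries vitamin D, and AMBP is cut into a lipocalin and the protease inhibitor bikunin. GPC3 is a heparan sulfate proteoglycan anchored in the membrane, and DLK1 is a membrane protein of hepatoblasts that is shed from the surface.

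Promoter windows are shown for 5 members: the neighbours ALB and AFP, the neighbours AHSG and FETUB, and AMBP, the highest in level. RBP4, next in level, is described below without its sequence. A link between these sequences and the levels was not tested. They are the 250 bases before a RefSeq start on GRCh38.p14, 5′ to 3′ on the gene's strand. The table of the study is on hg19, and no coordinate was carried between builds. Capitals mark TATAAA, a form of the TATA box, and CCAAT, the core of the CCAAT box, or their reverse complements TTTATA and ATTGG.
ALB, chr4:73404037-73404286, plus strand: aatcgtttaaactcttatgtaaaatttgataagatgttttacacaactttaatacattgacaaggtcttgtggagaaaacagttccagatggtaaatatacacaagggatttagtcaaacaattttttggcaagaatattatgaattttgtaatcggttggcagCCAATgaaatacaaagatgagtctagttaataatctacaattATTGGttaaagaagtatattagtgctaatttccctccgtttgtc
AFP, chr4:73435971-73436220, plus strand: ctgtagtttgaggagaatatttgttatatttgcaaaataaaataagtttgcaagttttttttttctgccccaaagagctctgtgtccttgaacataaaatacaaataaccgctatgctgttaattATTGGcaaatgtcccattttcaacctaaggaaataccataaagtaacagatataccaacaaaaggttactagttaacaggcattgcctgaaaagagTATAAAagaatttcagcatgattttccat
AMBP, chr9:114078301-114078550, minus strand: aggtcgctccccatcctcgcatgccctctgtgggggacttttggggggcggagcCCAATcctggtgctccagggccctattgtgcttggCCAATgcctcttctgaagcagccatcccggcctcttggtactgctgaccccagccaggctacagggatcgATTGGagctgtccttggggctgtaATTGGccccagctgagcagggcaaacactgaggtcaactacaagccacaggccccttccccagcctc
AHSG, chr3:186612810-186613059, plus strand: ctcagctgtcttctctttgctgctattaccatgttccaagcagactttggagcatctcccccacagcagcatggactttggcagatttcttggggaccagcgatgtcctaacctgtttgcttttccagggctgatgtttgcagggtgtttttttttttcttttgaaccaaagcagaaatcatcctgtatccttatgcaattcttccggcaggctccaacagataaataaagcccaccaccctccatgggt
FETUB, chr3:186640149-186640398, plus strand: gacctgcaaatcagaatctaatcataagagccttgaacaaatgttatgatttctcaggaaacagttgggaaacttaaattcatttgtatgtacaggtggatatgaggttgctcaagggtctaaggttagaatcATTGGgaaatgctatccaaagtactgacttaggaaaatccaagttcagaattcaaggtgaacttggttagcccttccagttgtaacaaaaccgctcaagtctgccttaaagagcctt

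A match to such letters is a description and not a site of binding. On either strand, TATAAA occurred once in the AFP window, 29 bases before the start, and in none of the other 4 windows shown. Of all 35116 RefSeq promoter windows of that length, 10.7% hold it. CCAAT was found 2 times in the ALB window, 1 time in that of AFP, 4 times in that of AMBP and 1 time in that of FETUB, and not in that of AHSG. The matches in the ALB window lie 86 and 44 bases before the start, and the one in the AFP window 125 bases before it. Of all windows, 32.0% hold CCAAT on either strand, and no matches to different motifs overlap in the windows shown. The windows also differed in base composition, with 30.0% GC for ALB, 31.6% for AFP and 62.0% for AMBP. For FETUB, RefSeq gives 2 starts. The one shown lies 27339 bases from the start of AHSG, near the 27299 bases between the 2 loci in the study's table. The other lies 22909 bases away and has 1 TATAAA, 30 bases before the start. RBP4 has 3 starts, whose windows are not shown. The window of the start at 93601235 has 1 TATAAA, 31 bases before it. That of the start at 93601513 has 2, at 227 and 225 bases, and that of the start at 93601744 has 0. TATAAA was thus not particular to AFP among the members. A window was matched for 6 of the 10 members.

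Levels are given in FPKM, fragments per kilobase of transcript and per M fragments, M standing for mega, a scale per length that allows genes to be compared. NFX1 itself had 4.21 FPKM with the vector and 56.0 FPKM with NFX1. The libraries were estimated at 26.1 M and 30.0 M fragments from the steps between low values. Change means log2((NFX1 FPKM + 1)/(vector FPKM + 1)), which understates the difference of low genes, and it was compared over 11182 genes with at least 1 FPKM in a library. Of these genes, 0.107% were at least 2-fold higher and 0.0358% at least 2-fold lower in the NFX1 library. At least 1.5-fold, the shares were 0.420% higher and 0.215% lower. As deposited 5816 genes were higher and 5366 lower, and scaled to equal totals 4547 and 6602. The median change was 0.01, and the changes between the 5th and 95th percentiles ran from -0.26 to 0.34. Base composition, transcript length and level together took 41.8% of the variance in change across the genes within 2-fold, and base composition alone took 38.3%. A value after removal of the joint trend is therefore given beside each of the 7 members that reached 1 FPKM in a library.

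The members spread over more than 3 orders of magnitude, and their order did not follow the division into oncofetal and mature products. In the vector library it was AMBP, RBP4, AHSG, GPC3, AFP, TTR, ALB, GC, FETUB and DLK1, and in the NFX1 library it was the same. AMBP and RBP4 made up 98.6% of the summed FPKM of the 10 genes in the vector library and 98.8% in the NFX1 library. Of the 10, 7 passed the filter of 1 FPKM, 5 of them mature and 2 oncofetal. ALB passed it only through the NFX1 library, where it is the higher. None of the 7 lay beyond 1.5-fold or 2-fold in either direction, and a count of 0 among 7 genes says little beside the small shares given above for all genes.

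**Figure D1:**
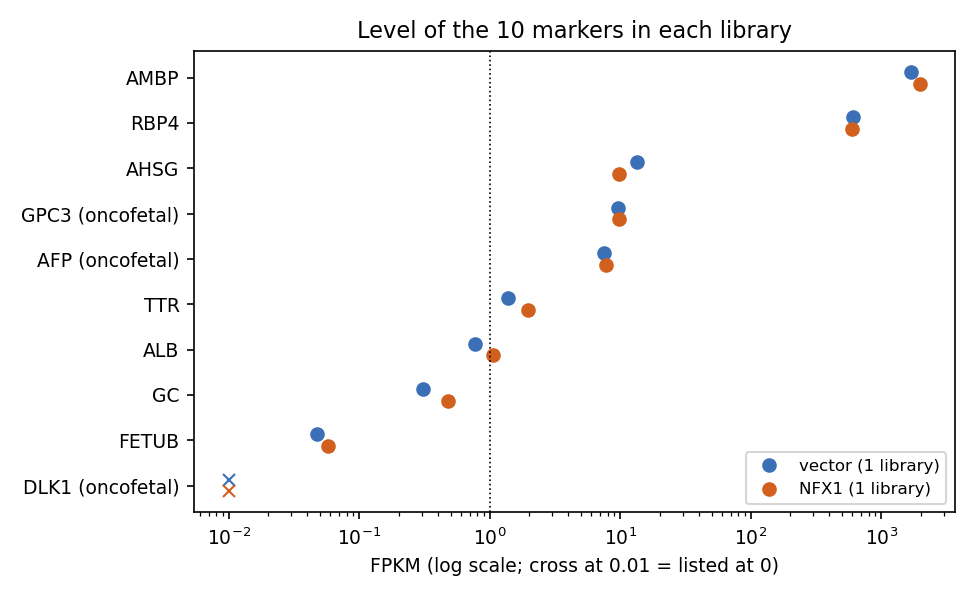
FPKM of each of the 10 genes (log axis) in the vector library (blue) and the NFX1 library (orange), 1 library each; the dotted line is 1 FPKM, and crosses stand for genes listed at 0. AMBP and RBP4 stand far to the right, ALB and TTR near the line, and both DLK1 values are at 0.

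Among the oncofetal genes, AFP (chromosome 4, 74301936 to 74321502, hg19), the fetal counterpart of albumin and a serum marker of hepatocellular carcinoma, had 7.48 FPKM with the vector and 7.73 FPKM with NFX1. Its FPKM ratio, NFX1 over vector, was 1.03, and the 95% exact counting interval of that ratio ran from 0.914 to 1.17. Such intervals rest on estimated fragments (here 485 and 576) and cover counting error only, not the spread between cultures. The change of AFP was 0.04 before and 0.13 after the trend was removed, and it was just below 0 under 2 of 3 other scalings, so that these libraries show no direction for AFP.

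GPC3 (chromosome X, 132669776 to 133119970), a binding partner of Wnt and Hedgehog ligands at the cell surface, had 9.56 FPKM with the vector and 9.68 FPKM with NFX1. The levels were within counting error of each other, with a ratio of 1.01 and an interval of 0.905 to 1.13. Its change of 0.02 was 0.06 after removal of the trend and turned below 0 under all 3 other scalings. GPC3 was higher than AFP by 1.28 times in the vector library (counting interval 1.13 to 1.44) and by 1.25 times in the NFX1 library (1.12 to 1.40).

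DLK1 (chromosome 14, 101193202 to 101201467), a Notch-related marker of hepatoblasts, was listed at 0 in both libraries. The row of MEG3 and MIR770, the maternally expressed RNAs of the same imprinted region, had 0.0454 FPKM in the vector library and was listed at 0 in the NFX1 library. The level of DLK1 therefore allows no comparison between the libraries.

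Albumin, the main protein of adult plasma, had an mRNA level near 1 FPKM in both libraries. ALB (chromosome 4, 74269972 to 74287129) had 0.776 FPKM with the vector and 1.06 FPKM with NFX1, an estimated 46 and 72 fragments. The ratio of its values was 1.37, with a counting interval of 0.928 to 2.02 that includes equal levels. Its change was 0.21 before and 0.33 after the trend was removed.

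The ratio of AFP to ALB does not depend on how the libraries were scaled. AFP exceeded ALB 9.64 times in the vector library, with a counting interval of 7.09 to 13.3. In the NFX1 library AFP exceeded ALB 7.29 times, with an interval of 5.70 to 9.45, which overlaps the first. The fetal carrier thus stood above the adult one in both libraries, and whether the ratio differed between them cannot be told from so few ALB fragments. The genes lie 14807 bases apart in the table, and AFM, which encodes afamin, a vitamin E carrier of the same family, follows 25960 bases after AFP. AFM was listed at 0 in the vector library and had 0.0138 FPKM in the NFX1 library, so that of these 3 adjoining family members AFP alone was above 2 FPKM.

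GC (chromosome 4, 72607411 to 72671237), the vitamin D binding protein and a more distant member of the albumin family, had 0.309 FPKM with the vector and 0.474 FPKM with NFX1. That corresponds to an estimated 15 and 27 fragments, and GC did not pass the filter. The ratio of 1.54 has a counting interval of 0.804 to 3.17, so a difference was not detectable at this depth. ALB stood above GC by 2.51 times in the vector library (interval 1.39 to 4.90) and by 2.24 times in the NFX1 library (1.40 to 3.58).

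The carriers of retinol and thyroxine, which circulate together, were far apart in level. RBP4 (chromosome 10, 95351593 to 95360993), the plasma carrier of retinol, had 602 FPKM with the vector and 595 FPKM with NFX1. It ranked 160 in the vector library and 175 in the NFX1 library. The ratio was 0.988, with a counting interval of 0.967 to 1.01. Its change was -0.02 as deposited, with a counting interval of -0.05 to 0.01, and -0.20 after the trend was removed. That interval belongs to the deposited change only, and no interval was made for the value after removal.

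TTR (chromosome 18, 29171730 to 29178986), which carries thyroxine and holds RBP4 in the circulation, had 1.38 FPKM with the vector and 1.96 FPKM with NFX1, an estimated 34 and 56 fragments. Its ratio of 1.42 has a counting interval of 0.920 to 2.26 and so includes equal levels. The change was 0.32 as deposited, higher than that of 93.6% of the genes compared or equal to it, and 0.37 after removal of the trend. RBP4 exceeded TTR 437 times in the vector library (interval 316 to 639) and 303 times in the NFX1 library (235 to 404), and these intervals overlap. TTR stood just above ALB, by 1.78 times in the vector library (1.09 to 2.78) and 1.85 times in the NFX1 library (1.27 to 2.64).

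With the pseudocount of 1, the fetuin AHSG had the change of greatest size among the 7 members that passed the filter. Among the same 7 with a pseudocount of 0.1, TTR (0.48) and AHSG (-0.47) were alike in size. AHSG (chromosome 3, 186330850 to 186339107), which inhibits calcification and is abundant in fetal plasma, had 13.5 FPKM with the vector and 9.70 FPKM with NFX1, an estimated 603 and 498 fragments. The ratio was 0.718, with a counting interval of 0.637 to 0.811, so the NFX1 value was the lower by more than counting error. The change was -0.44 before and -0.51 after the trend was removed. It lay between -0.51 and -0.33 across the pseudocounts of 0.1 and 5, the 3 other scalings and removal of the trend. The filters, summed rows and row status left it at -0.44, which was fixed in advance for a gene with 1 row at this level. Only 0.635% of the genes compared had a change as low or lower. In RNA from whole cultures, fewer cells that make AHSG and less AHSG RNA per cell cannot be told apart. In the authors' deposited table AHSG had the lowest p of the members, p = 0.0734 with q = 0.999, from 1 library a group.

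Ratios to other members put the AHSG difference in terms free of scaling. AHSG stood 1.81 times above AFP in the vector library (interval 1.60 to 2.04) and 1.25 times above it in the NFX1 library (1.11 to 1.42), and these intervals do not overlap. Against GPC3 it was 1.41 times higher in the vector library (1.26 to 1.58) and level in the NFX1 library, at 1.00 times (0.892 to 1.13). AHSG and GPC3 are thus neighbours in the order of levels that counting error cannot separate in the NFX1 library.

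FETUB (chromosome 3, 186358149 to 186370797), the second fetuin and an inhibitor of metalloproteases, begins 19042 bases after the end of AHSG. It had 0.0472 FPKM with the vector and 0.0574 FPKM with NFX1, an estimated 1 and 2 fragments. No difference can be read from so few. AHSG exceeded FETUB 286 times in the vector library (interval 66.5 to 14710) and 169 times in the NFX1 library (42.3 to 1271), and these intervals overlap. The next genes of that cluster, which also encode cystatin-type plasma proteins, were low as well. HRG, a histidine-rich glycoprotein, had 0.0790 and 0.0963 FPKM in the vector and NFX1 libraries, and KNG1, kininogen, had 0.390 and 0.242 FPKM. On the other side of AHSG, the chaperone gene DNAJB11 had 59.9 FPKM with the vector and 55.0 FPKM with NFX1, a change of -0.12.

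AMBP was the most abundant member. AMBP (chromosome 9, 116822408 to 116840752), the precursor of alpha-1-microglobulin and of the bikunin chain of inter-alpha-trypsin inhibitors, had 1694 FPKM with the vector and 1981 FPKM with NFX1. It ranked 59 and 56 among the genes compared. The ratio of 1.17 had a narrow counting interval of 1.16 to 1.18, because it rests on an estimated 63365 and 85160 fragments. Its change of 0.23 went to 0.00 after removal of the trend. AMBP had a GC content of 56.9% in its transcript, and AFP, whose change was 0.13 after removal, 38.8%. RBP4, at 54.7% GC, went from -0.02 to -0.20, and AHSG, at 53.7% GC, from -0.44 to -0.51. The trend is joint over base composition, length and level, and the part of each in a single gene was not tested.

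AMBP exceeded RBP4 2.81 times in the vector library (interval 2.76 to 2.86) and 3.33 times in the NFX1 library (3.28 to 3.38). This shift in the balance of the most abundant members is larger than counting error and free of scaling. After removal of the trend the changes were 0.00 for AMBP and -0.20 for RBP4, so AMBP remained the higher of them. AMBP exceeded ALB 2184 times in the vector library and 1868 times in the NFX1 library. The flanking genes were far lower, with ZNF618 at 2.90 and 2.88 FPKM and the kinesin gene KIF12 at 8.11 and 9.92 FPKM in the vector and NFX1 libraries.

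**Figure D2:**
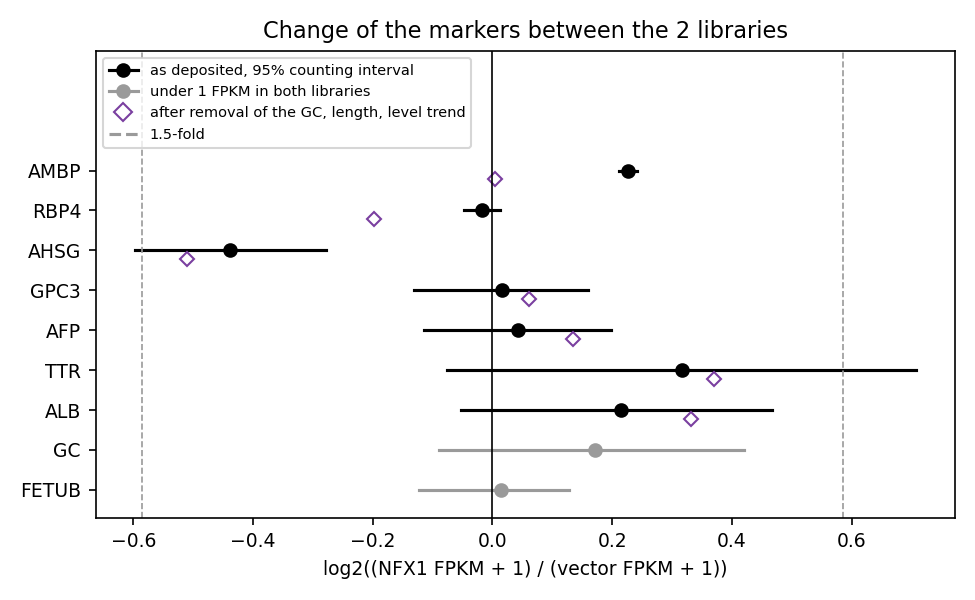
Change of 9 members, log2((NFX1 FPKM + 1)/(vector FPKM + 1)), with 95% counting intervals as bars (grey for members under 1 FPKM in both libraries) and, as open diamonds, the change after removal of the trend; dashed lines are 1.5-fold. The bars of AHSG and AMBP lie clear of 0, and the diamond of AMBP lies at 0.00.

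Set side by side, the oncofetal and the mature members gave no stable order of change. The 2 measured oncofetal genes had a median change of 0.03 and the 5 measured mature genes one of 0.21, beside 0.01 over all genes compared. The mature median is the change of ALB itself, which passed the filter only through the NFX1 library, and without ALB it was 0.10. The oncofetal median minus the mature median was -0.19 with ALB and -0.07 without it. After the trend was removed, with ALB, it was 0.09. With at least 5 FPKM required, which leaves AHSG, RBP4 and AMBP of the mature genes, the difference was 0.05. The mature genes themselves went both ways, from -0.44 for AHSG to 0.32 for TTR.

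**Figure D3:**
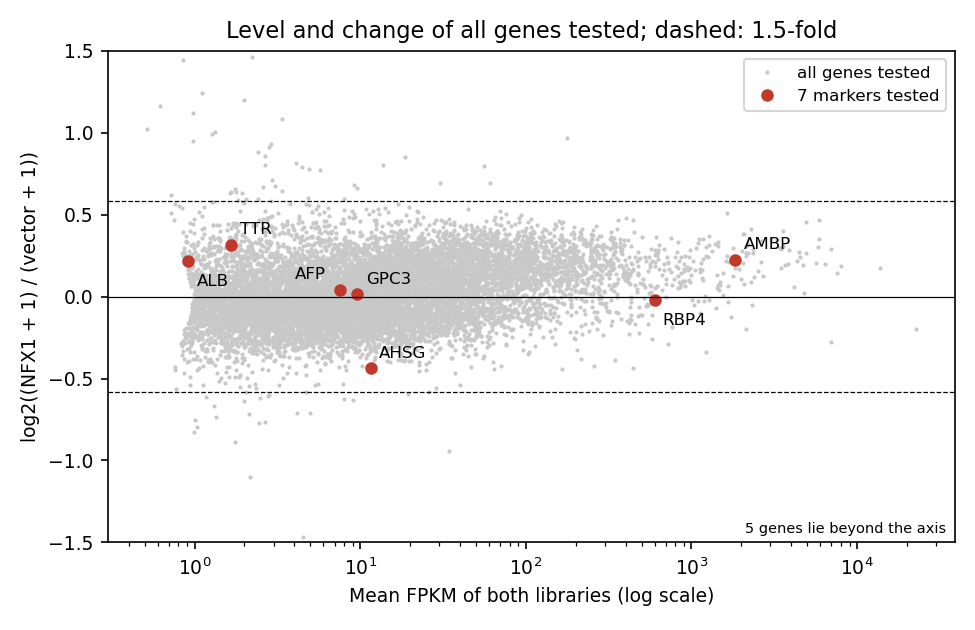
Change (vertical axis) against the mean FPKM of both libraries (log axis) for the 11182 genes compared, with the 7 measured members in red; dashed lines are 1.5-fold, and 5 genes lie beyond the axis. All 7 red points lie between the dashed lines, with AHSG at the lower edge of the grey cloud.

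8 of the 10 members were tested in the authors' deposited table by its own method, with 6 higher and 2 lower in the NFX1 library, and none was marked significant, against 18 of all 14994 rows tested. Its log2 fold changes, which have no pseudocount, were 0.62 for GC, 0.51 for TTR and 0.45 for ALB in the authors' deposited table, the members with the fewest estimated fragments among the 8.

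The wide spread of the members was shared by other plasma proteins of the hepatocyte. Of 41 further genes of that kind, 11 had at least 100 FPKM in the vector library, 15 had 1 to 100 FPKM and 15 were under 1 FPKM. SERPINA1, the antitrypsin gene, AGT, angiotensinogen, and IGFBP1, a binding protein of insulin-like growth factors, stood above AMBP, at 5935, 2345 and 2276 FPKM. The same 15 that were under 1 FPKM stood below ALB, among them HP, haptoglobin, and F9, clotting factor IX, both listed at 0 in both libraries. Fibrinogen shows the unevenness within 1 complex, with FGA, its alpha chain, at 230 FPKM in the vector library and FGB, the beta chain, at 1.70 FPKM. These examples of level were chosen after their values were seen.

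**Figure D4:**
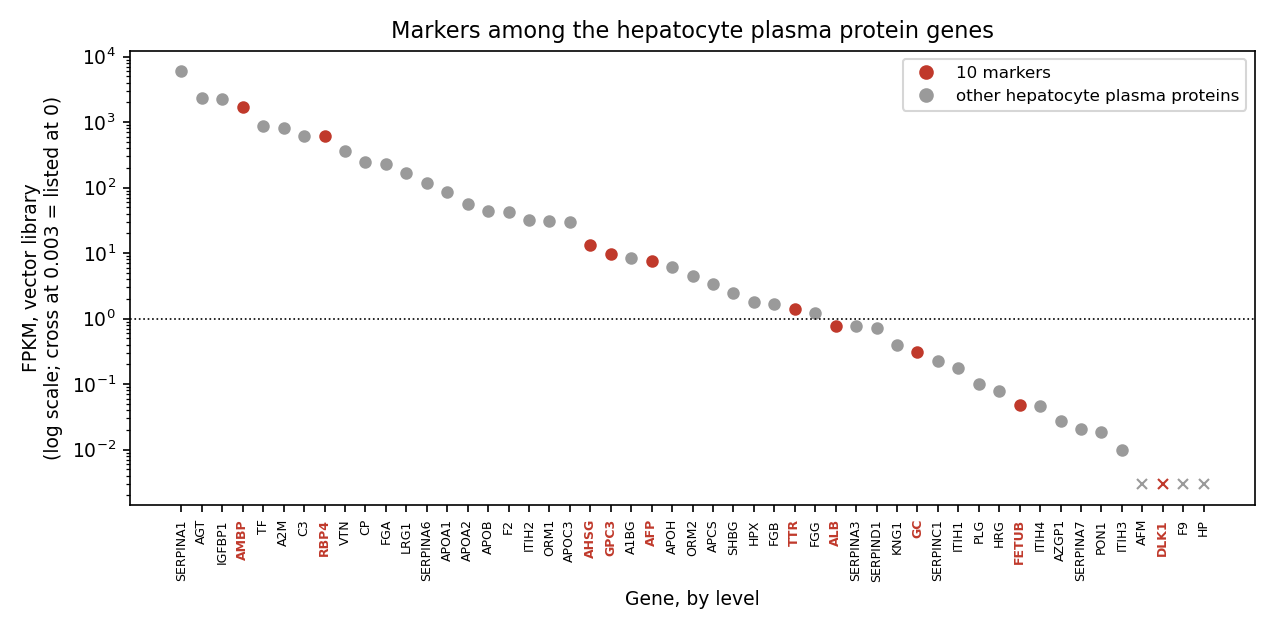
FPKM in the vector library (log axis) of the 10 members (red) and 41 other genes of hepatocyte plasma proteins (grey), in order of level; the dotted line is 1 FPKM, and crosses are genes listed at 0. 3 grey genes stand above AMBP, and ALB is the first gene below the line.

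For the 26 measured plasma protein genes the median change was -0.04 (-0.11 after removal of the trend), with 12 higher and 14 lower and none beyond 1.5-fold on that scale. By the plain ratio of FPKM, ORM1 alone of the 26 was past 1.5-fold, at 1.52-fold lower. On that ratio 112 of all 11182 genes compared were past 1.5-fold lower and 139 past 1.5-fold higher. Scaled to equal totals, 9 of the 26 were higher and 17 lower. The changes of greatest size were in ORM1, an acute-phase glycoprotein, at 31.4 FPKM with the vector and 20.6 FPKM with NFX1, and CP, the copper-carrying ferroxidase ceruloplasmin, at 246 and 188 FPKM. A1BG, a plasma glycoprotein, had 8.53 and 11.3 FPKM, and SERPINA6, the carrier of cortisol, 118 and 149 FPKM. ORM1 and its near-identical neighbour ORM2 (4.41 and 3.34 FPKM) may share reads, so their values are uncertain. Of the 26, 3 had changes below the 5th percentile of all genes, ORM1, ORM2 and CP at -0.58, -0.32 and -0.38, and 1 lay above the 95th, A1BG at 0.37. After removal of the trend the changes were -0.67 for ORM1, -0.39 for ORM2, -0.33 for CP and 0.16 for A1BG.

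Bikunin is joined to heavy chains of the ITIH family. Of these chains, ITIH2 had 32.2 FPKM with the vector and 29.6 FPKM with NFX1. ITIH1 (0.175 and 0.440 FPKM), ITIH3 (0.00989 and 0.00861 FPKM) and the related ITIH4 (0.0468 and 0.0733 FPKM) were under 1 FPKM in both. Of the 4, ITIH2 alone passed the filter, at a level far below that of AMBP.

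Other oncofetal and progenitor genes were mostly lower in the NFX1 library, by small amounts. Of 15 measured, 12 were lower and 3 higher with NFX1, and the median was -0.14 (-0.09 with 12 lower after removal of the trend), and none lay beyond 1.5-fold. Of all genes compared, 48.0% were lower. Under the 3 other scalings 13 of the 15 were lower, beside 53.9% to 59.2% of all genes. CD24, a surface glycoprotein of progenitor cells, had 796 and 651 FPKM in the vector and NFX1 libraries, and IGF2BP2, an RNA-binding protein that stabilises mRNAs, had 37.5 and 31.0 FPKM. The growth factor gene MDK, midkine, was higher in the NFX1 library, at 388 and 510 FPKM, and so was the chromatin gene HMGA1, at 440 and 568 FPKM. Their changes of 0.39 and 0.37 were 0.11 for each after removal of the trend. H19, IGF2 and MEG3 lie in rows with several symbols and were left out of the list.

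Known regulators of AFP and ALB transcription were measured for 17 of 20, with a median change of 0.06 (0.03 after removal of the trend), 11 higher and 6 lower and none beyond 1.5-fold. With libraries scaled to equal totals 8 were higher and 9 lower. CEBPA, a factor of mature hepatocytes, had 16.1 FPKM with the vector and 21.7 FPKM with NFX1, and FOXA3, a forkhead factor, had 20.9 and 24.5 FPKM. Their changes of 0.41 and 0.22 were 0.21 for CEBPA and 0.03 for FOXA3 after removal of the trend. ZBTB20, a repressor of AFP in the adult liver, was under 1 FPKM in both libraries, at 0.210 and 0.229 FPKM, while ZHX2, another repressor of AFP, had 6.07 and 6.36 FPKM. Those last genes were named after their values were seen.

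Genes that handle retinoids and thyroid hormone, the cargo of RBP4 and TTR, had a median change of 0.10 over 10 measured genes, with 6 higher and 4 lower, which turned to -0.06 with 6 lower after removal of the trend. None lay beyond 1.5-fold. RDH10, which oxidises retinol, had 115 FPKM with the vector and 90.2 FPKM with NFX1. The nuclear receptor genes THRB and RARB had 3.13 and 2.31 FPKM, and 2.87 and 2.24 FPKM, while RXRB had the higher value with NFX1, a change of 0.26 (0.11 after removal of the trend). The RBP4 receptor STRA6 was under 1 FPKM, at 0.178 and 0.197 FPKM.

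Other glypicans, syndecans and heparan sulfate genes, set beside GPC3, had a median of 0.00 over 9 measured genes (0.02 after removal of the trend), with 5 higher and 4 lower and none beyond 1.5-fold. Under the other scalings 3 or 4 were higher. GPC1 had 13.9 and 17.7 FPKM in the vector and NFX1 libraries, GPC6 13.8 and 11.9 FPKM, SDC1 38.2 and 46.6 FPKM, and SDC2 15.3 and 13.1 FPKM. GPC3, at 9.56 FPKM in the vector library, stood below GPC1 and GPC6.

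Receptors that take up or recycle the carriers had a median of 0.24 over 6 measured genes, 4 higher and 2 lower, which was 0.03 with 3 higher after removal of the trend. The asialoglycoprotein receptor genes ASGR1 and ASGR2 had 265 and 329 FPKM, and 90.4 and 103 FPKM, in the vector and NFX1 libraries. FCGRT, the receptor that recycles albumin, had 38.0 and 46.4 FPKM, and AMN, part of the cubilin complex, 9.88 and 12.9 FPKM. None lay beyond 1.5-fold, and all 4 changes were at most 0.15 after removal of the trend.

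**Figure D5:**
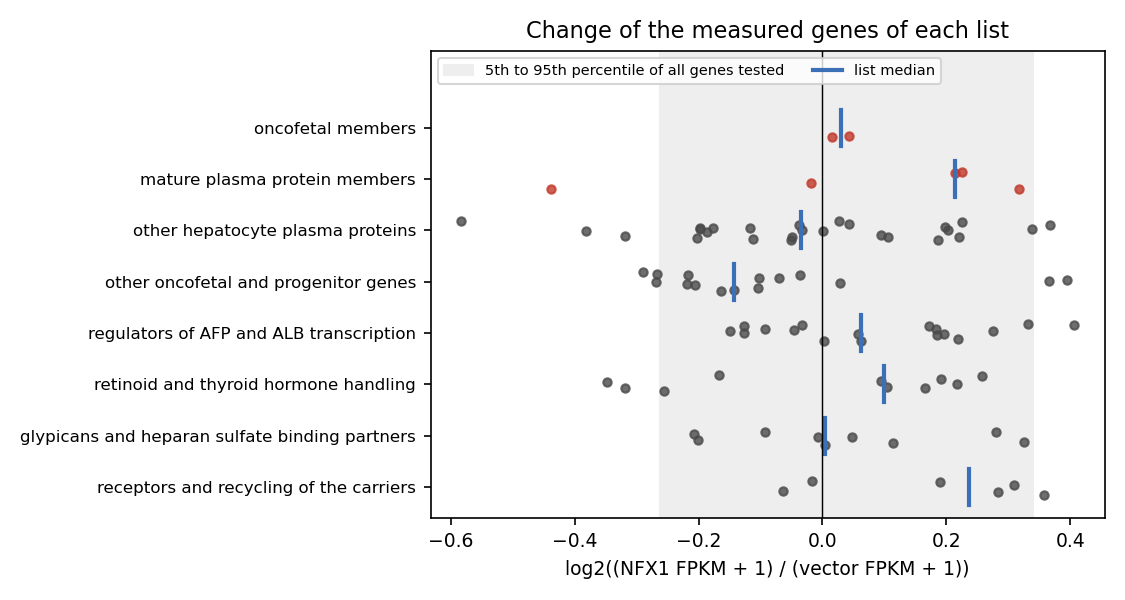
Change of each measured gene (points) in the oncofetal and mature members (red) and in 6 further lists (grey), with the list median as a blue bar; the shaded band runs from the 5th to the 95th percentile of all genes compared. Left of the band lie AHSG, 3 other plasma protein genes, 3 other oncofetal and progenitor genes and 2 retinoid and thyroid hormone genes. Right of it lie 1 plasma protein gene, 2 oncofetal and progenitor genes, 1 regulator and 1 receptor. The medians lie between -0.14 and 0.24.

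Markers of the labelled cell type were checked together with those of other cells. All 8 hepatocyte markers passed the filter, ALB only through the NFX1 library, where it is the higher. They ran from SERPINA1 at 5935 FPKM down to FGB at 1.70, TTR at 1.38 and ALB at 0.776 FPKM in the vector library. Their summed level was 6986 FPKM with the vector and 7923 FPKM with NFX1, mostly from SERPINA1 at 5935 and 6807 FPKM, and 2 of the 8, APOB and FGB, were lower with NFX1. The 6 markers of fibroblasts and stellate cells summed to 0.917 and 1.04 FPKM and the 5 endothelial markers to 0.0656 and 0.0565 FPKM, with CDH5 and KDR listed at 0 in both. Of 6 blood markers, PTPRC and CD3E were listed at 0 in both, and CD68 and LYZ, at 48.9 and 49.2 FPKM in the vector library, made up nearly all of the sum. Bile duct markers, some of which liver progenitors share, summed to 43.3 and 40.5 FPKM, mostly from EPCAM at 31.6 and 29.3 FPKM.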

How the data were processed

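The authors deposited 1 table with FPKM for each of 2 libraries and, per the file headers, p-values and q-values, log2 fold changes and a score (the test statistic) for every row. TopHat2 2.1.0, Cufflinks 2.2.1 and hg19 are named per the submitters' processing notes; settings, annotation and scaling are not given in the sources used here. From the 28658 rows, those with no symbol (1651) or several symbols (492) were dropped. Groups follow the genotype labels. Members and lists were chosen with earlier results of these data known. Named genes were all members and up to 4 measured genes of each other list by size of change; others were named by position or after their values were seen, and some genes of the lists are counted but not reported by name.

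Depth was estimated from low rows: 44.4% of 2669 had ratios within 0.02 (log2) of those of 1 to 4 whole fragments, where other offsets gave a median of 6.18%, and the NFX1 library came out 1.15 times as deep as the other. Olfactory receptor genes gave the total, from 12 of 33 values. Fragments of a gene used the median length of its GENCODE transcripts with a RefSeq match (957 bp for TTR, 2263 bp for ALB), used without coordinates. A length too short makes an interval too wide, and a length too long makes it too narrow. Intervals are exact Clopper-Pearson intervals at 95%. The trend on GC content, log2 length and level was fitted with cubic splines (3 inner knots) on genes within 2-fold, for 10996 genes (98.3%). Steps were tested on simulated libraries. Software was scipy 1.17.1, numpy 2.4.6, matplotlib 3.10.9, pandas 2.3.3 and Python 3.11.15.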

Additional observations from a re-analysis of the deposited data

How the results depend on the processing

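Settings tried were the pseudocount, the filter, 3 scalings, summed rows, row status, removal of the trend and the fold limits of 1.5 and 4. With at least 5 FPKM required TTR and ALB give no value. The change of RBP4 was -0.074, -0.057 and -0.093 when scaled to a median ratio of 1, by the upper quartile and to equal totals, and -0.20 after removal of the trend; that of AMBP was 0.17, 0.19, 0.15 and 0.0043. The oncofetal median was -0.02, -0.01 and -0.04 under the 3 scalings, and the mature median -0.02 with at least 5 FPKM. Leaving out ALB, a choice made after seeing the data, moved the mature median to 0.10 and the oncofetal median minus it to -0.07. Genes at least 2-fold higher and lower, 12 and 4, became 25 and 16 with a pseudocount of 0.1, 1 and 0 with 5, and 1 and 2 with at least 5 FPKM. After removal of the trend 7 were higher and 4 lower; the limit of 1.5 gave 47 and 24, and that of 4 gave 1 and 1. The causes were not tested. No paired analysis was possible because each group has 1 library. Depth limits TTR, ALB, GC and FETUB, at under 100 estimated fragments in each library, and no setting measures the spread between cultures.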
